A study of Mus musculus with 2 samples.

Results

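The transcripts described here are the small nucleolar RNAs (snoRNAs), the small Cajal body RNAs (scaRNAs) and the small nucleolar RNA host genes (Snhg) of the mouse olfactory bulb (the forebrain structure in which axons from the nose make their first synapses). They were chosen by gene name, with earlier results of these data known, as every array probe whose gene name starts with Snora, Snord, Scarna or Snhg and a number. This gave 37 probes for 28 genes, of 56605 probes for 37074 gene names. Of the 28 genes, 13 were small RNAs (8 H/ACA box snoRNAs, 3 C/D box snoRNAs and 2 scaRNAs, with 1 probe each) and 15 were Snhg transcripts with 24 probes.

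Total RNA of the bulb was measured on 2 one-colour Agilent arrays, 1 from a control mouse under standard odor conditions and 1 from a mouse under odor-enriched conditions. The labels give no strain, age, odorant or duration. They name the tissue as neurons of the bulb and its source as the bulb, with no sorting step. RNA was primed with an oligo dT primer before labelling, per the labels' protocols. Each group is thus 1 mouse on 1 array, without replicates, and the groups could not be tested against each other, so each difference compares these 2 arrays and not the conditions. The number of arrays sets the limit on precision.

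Small nucleolar RNAs are short, structured noncoding RNAs that guide chemical modification of other RNAs in the nucleolus, where ribosomes are built. C/D box snoRNAs guide the methylation of ribosomal RNA riboses, and H/ACA box snoRNAs guide the conversion of uridine to pseudouridine. The scaRNAs do the same for spliceosomal RNAs in Cajal bodies. Most of these RNAs are cut out of the introns of longer host transcripts, and the mature RNAs carry no poly(A) tail. Some hosts encode ribosomal or translation proteins. Others, the Snhg genes, have spliced transcripts with little or no known coding function, which are polyadenylated.

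Each small RNA was read by 1 probe of 60 bases. Probes are shown for 8 of the 13 small RNAs and for the host transcript Snhg10, as examples of what was read. Where each probe lies within the mature small RNA or its flanks was not worked out here. Sequences are the array's, 5′ to 3′, and positions are given on mm9, the build that the file headers name. Capitals mark an ACA or a CTGA in the last 10 bases, the letters of the ACA box of H/ACA RNAs and of the D box of C/D RNAs.
Snora73a, minus strand, chr4:131908690-131908749: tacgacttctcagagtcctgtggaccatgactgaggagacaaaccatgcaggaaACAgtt
Scarna13, minus strand, chr12:106269285-106269344: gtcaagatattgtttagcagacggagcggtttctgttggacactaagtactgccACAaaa
Snora34, minus strand, chr15:98350149-98350208: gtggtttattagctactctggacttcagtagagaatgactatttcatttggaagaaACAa
Snora47, plus strand, chr13:96100607-96100666: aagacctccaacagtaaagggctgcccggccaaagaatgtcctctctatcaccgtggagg
Snora52, plus strand, chr7:148634747-148634806: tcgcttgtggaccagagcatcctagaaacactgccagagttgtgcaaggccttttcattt
Snord17, minus strand, chr2:144091718-144091777: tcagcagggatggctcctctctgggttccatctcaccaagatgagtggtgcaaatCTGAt
Snord33, minus strand, chr7:52382243-52382302: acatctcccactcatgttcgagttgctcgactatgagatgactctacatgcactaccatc
Snord7, plus strand, chr11:83107838-83107897: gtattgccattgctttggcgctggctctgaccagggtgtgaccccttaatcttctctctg
Snhg10, minus strand, chr12:106268866-106268925: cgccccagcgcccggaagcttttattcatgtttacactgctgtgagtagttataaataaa

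In the Snora73a and Scarna13 probes the ACA was followed by 3 bases to the probe's end. An ACA in the last 10 bases was found in 4 of the 10 H/ACA and scaRNA probes and in 14.5% of all 56605 probes. A CTGA there was found in 1 of the 3 C/D probes and in 4.18% of all probes. The C box letters TGATGA were found on the probe strand in 0 of the 13 small RNA probes and in 2.60% of all probes. The G and C content of the small RNA probes had a median of 48.3% (35% to 55%), against 40.8% (25% to 58.3%) for the Snhg probes and 41.7% for all probes.

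The small RNAs were higher in the odor-enriched bulb, while most Snhg transcripts differed little between the arrays. Signals were compared as log2 of the processed signal minus the array's 75th percentile, and every difference below is odor enriched minus control on that scale. Of the 13 small RNAs, 11 were well above background on both arrays, and of these 10 passed 2-fold upwards and 0 downwards. Scaled on the E1A spike-in probes instead, 3 of the 11 passed 2-fold upwards, where 1.58% of all genes did so and 83.5% passed downwards. On the 75th percentile scale the background was 11.5% upwards and 5.52% downwards over all 23872 genes measured on both arrays. It was 8.92% and 5.99% over the 11936 genes at or above the median signal. Over the 987 genes typed by accession as long noncoding RNA, a type that leaves out the small RNAs, it was 16.2% and 4.66%. The median difference was 2.13 log2 units over the 11 small RNAs and 0.00156 over all genes. Of the 15 Snhg transcripts, 14 were measured on both arrays, with a median of 0.11, and 1 passed 2-fold in each direction, close to those backgrounds. With no filter on dim probes the difference was positive for 13 of 13 small RNAs, from 0.41 upwards, and 11 passed 2-fold. All 37068 genes then had a median of 0.21, and 25.3% passed 2-fold upwards. The lowest small RNA, Scarna6, lay within its spot error of 0.43. Whole tissue was assumed, since no sorting step is given, and then more cells with a transcript and more of it per cell cannot be told apart.

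**Figure D1:**
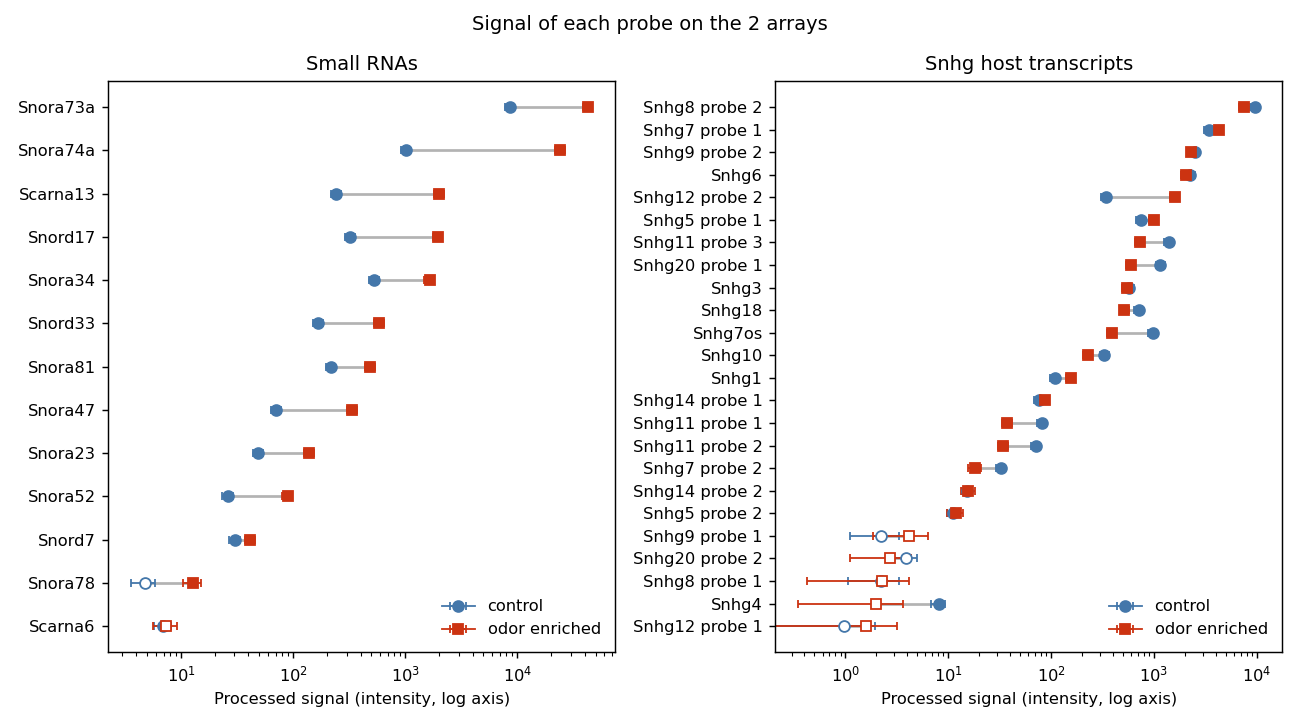
Processed signal of each probe on the control array (circles) and the odor-enriched array (squares), on a log axis, with the scanner software's error as bars. Open symbols were not well above background. The odor-enriched signal lies to the right for each of the 13 small RNAs, and to either side for the Snhg probes.

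All 7 H/ACA RNAs measured on both arrays passed 2-fold upwards, with a median of 2.09. Signals below are the scanner software's processed signals, which it background-subtracted and detrended, before scaling. Folds and differences are after scaling. The percentile subtracted from the control array was 7.966 and from the odor-enriched array 7.655 (log2 units), so equal signals give a difference above 0. Snora73a, also known as U17, is needed for cutting the precursor of ribosomal RNA rather than for modifying it. Its control signal was 8563 ± 856 and its odor-enriched signal 42633 ± 4263, where the error is that of the scanner software's error model for 1 spot and not a spread between mice. This is 6.18-fold (2.63 ± 0.20 log2 units), the second number being the same error model carried to the difference. Its rank by difference was 445 of 23872 genes.

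Snora74a, an H/ACA RNA also known as U19, had the largest difference of the members. Its control signal was 1014 ± 101 and its odor-enriched signal 24208 ± 2421, 29.6-fold (4.89 ± 0.20). Only 22 of the 23872 genes differed more in that direction, since its rank was 23.

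The other H/ACA RNAs, guides of pseudouridylation, were also higher in the odor-enriched sample. Snora47 went from 70.8 ± 7.2 to 338 ± 33.9 (2.57 ± 0.21). Snora52 went from 26.1 ± 2.8 to 89.5 ± 9.1 (2.09 ± 0.21). Snora34 went from 530.2 ± 53.0 to 1653 ± 165 (1.95 ± 0.20). These 3 lay between 3.87-fold and 5.92-fold and differed by far more than the spot error. Snora23 went from 49.1 ± 5.0 to 139 ± 14 (1.82 ± 0.21). Snora81 went from 217 ± 21.7 to 488 ± 48.8 (1.48 ± 0.20), the lowest of the members that passed 2-fold. With normexp background correction, which adds an offset to every signal, Snora47 stood at 1.80, Snora23 at 1.2, Snora81 at 1.13 and Snora52 at 1.02, the last close to the threshold.

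Snora78 lay near background. Its signal was 4.73 ± 1.12 in the control, not well above background, and 12.8 ± 2.3, well above background, on the odor-enriched array. Taken against the dimmest control probe that was well above background, the odor-enriched level was at least 3.26-fold higher.

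The 3 C/D box RNAs spread more widely. Snord17, a longer C/D RNA of 221 bases, went from 323 ± 32.3 to 1953 ± 195, 7.51-fold (2.91 ± 0.20). Snord33, of 82 bases, went from 167 ± 16.7 to 589 ± 59.0, 4.39-fold (2.13 ± 0.20). Snord7 went from 30.1 ± 3.2 to 41.5 ± 4.5 (0.77 ± 0.22), so it was the only small RNA measured on both arrays that stayed under 2-fold. The rule found no Snord113 to Snord116 of the imprinted clusters, and Snora73a was its only RNA of pre-rRNA cleavage.

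Of the 2 scaRNAs, only Scarna13 was well above background on both arrays. Scarna13 went from 241 ± 24.2 to 2022 ± 202, 10.4-fold (3.38 ± 0.20). Its rank by difference was 183 of 23872 genes. Scarna6 gave 6.93 ± 1.2 in the control and 7.39 ± 1.80 on the odor-enriched array, where it was not well above background. No fold is given for it, because its control level lay under the lowest level called well above background on the odor-enriched array.

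**Figure D2:**
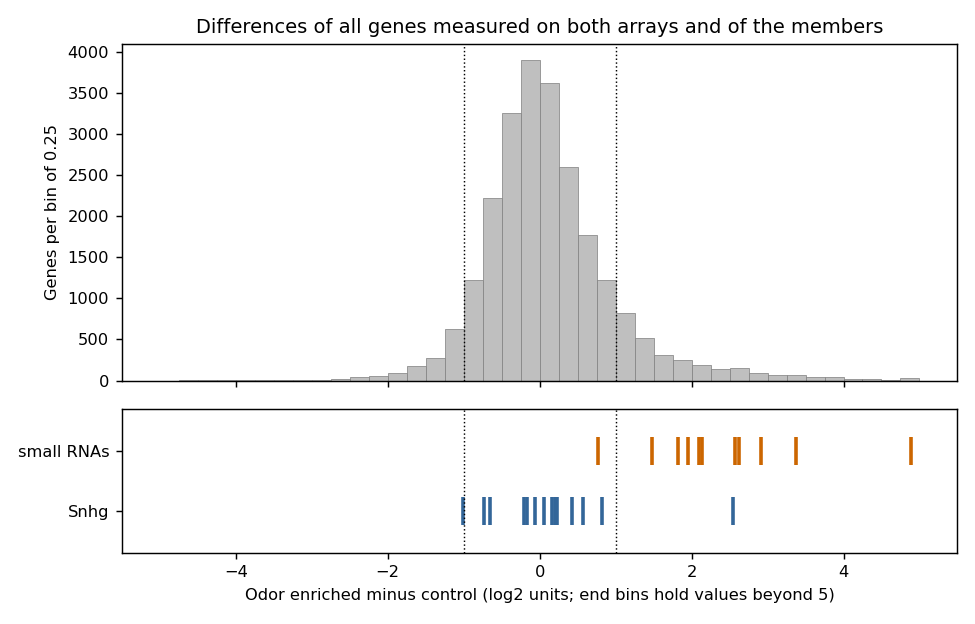
Number of genes per bin of difference (odor enriched minus control, log2 units) for the 23872 genes measured on both arrays (top), and the 11 small RNAs and 14 Snhg transcripts as ticks on the same axis (bottom). Dotted lines mark 2-fold. The small RNAs lie in the upper tail, from 0.77 to 4.89, and the Snhg transcripts around the centre except for Snhg12.

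Among the Snhg transcripts, Snhg12 stood apart from the rest. It is the host of Snora16a, Snora44, Snora61 and Snord99, none of which had a probe under the rule. Its RefSeq probe (chromosome 4, 131866864 to 131866922, mm9) went from 339 ± 33.9 to 1591 ± 159, 5.82-fold (2.54 ± 0.20). Its other probe, made for an expressed sequence tag and placed nowhere on mm9 by the files, was not well above background on either array.

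Snhg8, Snhg6 and Snhg9 had strong signals and differed by less than 2-fold. Snhg8, the host of Snora24, gave 9635 ± 963 and 7441 ± 744 (-0.06 ± 0.20). Snhg6, the host of Snord87, gave 2258 ± 226 and 2038 ± 204 (0.16 ± 0.20), and Snhg9, the host of Snora78, gave 2488 ± 249 and 2309 ± 231 (0.20 ± 0.20). These 3 differences were no larger than the error of a single spot. The second probes of Snhg8, Snhg9 and Snhg20 were not well above background on either array.

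Snhg7 had probes that disagreed in sign. Its RefSeq probe, with signals of 3396 ± 340 and 4272 ± 427, stood at 0.64, and its probe for a cDNA clone, with 32.4 ± 3.4 and 18.2 ± 2.5, at -0.52, which gave a mean of 0.06. Snhg7os, a predicted transcript of the opposite strand, went from 978 ± 97.8 to 391 ± 39.2 (-1.01 ± 0.20), just past 2-fold lower. Over the 6 scalings that used no spike-in it ran from -1.18 to -0.68, and it stayed short of 2-fold in 4 of them. The RefSeq table places 0 small RNA genes within Snhg7os and 0 within Snhg20, so the name alone makes them members.

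Snhg1, the host of Snord22 and of 7 further snoRNA genes in the RefSeq table, gave 109 ± 10.9 and 155 ± 15.6 (0.82 ± 0.21), just short of 2-fold. Snhg5 stood at 0.57 ± 0.19 over probes at 0.74 and 0.40. Snhg14, the long transcript of the imprinted Prader-Willi region, in whose span the table places 206 snoRNA genes, stood at 0.42 ± 0.17 over probes at 0.50 and 0.34. These 3 were higher in the odor-enriched sample by more than their spot error and by less than 2-fold. Snhg5 and Snhg14 lay within the pooled SD of 0.63 between probes of a gene. With E1A scaling Snhg1 (-0.93), Snhg5 (-1.19) and Snhg14 (-1.34) were negative. Snhg1 passed 2-fold in the authors' series matrix (1.16).

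Snhg11, a host transcript known from neurons, was lower on each of its 3 probes, from -0.81 to -0.63. Their mean was -0.73 ± 0.12, an error that treats the 3 as separate. The probes at -0.81 and -0.76 overlap on the genome and cannot be counted as separate readings. Snhg20 stood at -0.65 ± 0.20, Snhg10 at -0.21 ± 0.20, Snhg18, the host of Snord123, at -0.16 ± 0.20 and Snhg3 at 0.23 ± 0.20. Snhg4, the host of Snora74a, gave 8.11 ± 1.27 on the control array and 2.0 ± 1.6 on the other, where it was not well above background. No fold is given because its control level lay under the odor-enriched array's lowest level well above background. Snhg6, Snhg7, Snhg8, Snhg10 and Snhg18 changed sign under at least 1 of the 6 scalings that did not use spike-ins, so they have no settled direction.

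Each small RNA was set beside the gene that holds it. In the RefSeq table of GRCm38.p6, used here for names and for which genes contain one another, each of the 13 small RNAs lies within a gene that the array reads on the same strand. For 10 of these pairs both partners were measured on both arrays. The small RNA exceeded its host in difference in 9 of the 10 pairs and by at least 2-fold in 8, with a median gap of 2.32 log2 units. The hosts themselves had a median difference of -0.01, with 5 negative and 5 positive. Across the 10 pairs Pearson's r was -0.62 and Spearman's rho -0.65, which is a description over pairs that share the same 2 arrays. Because the gap is taken within the arrays, rescaling an array by a constant does not alter it.

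In the Snhg pairs the contrast was wide. Scarna13 stood at 3.38 and its host Snhg10 (329 ± 33.0 and 230 ± 23.0) at -0.21, a gap of 3.59. Snora73a stood at 2.63 and Snhg3 (575 ± 57.5 and 546 ± 54.6) at 0.23, a gap of 2.39. Snora74a was 29.6-fold higher while the signal of Snhg4 was 8.11 and 2.0, near background on both arrays. Snora78, read from a spot near background, had a bound of 3.26-fold while Snhg9 stood at 0.20.

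Most protein-coding hosts also lay below their small RNA. Snord17 lies in Snx5, a sorting nexin of endosomes, which stood at -0.25, a gap of 3.16. Snora34 lies in Kansl2, a subunit of a histone acetyltransferase complex, which was lower on both its measured probes (-1.2 and -0.84, mean -1.02), a gap of 2.97. Snora47 lies in Zbed3, at -0.05, a gap of 2.61. Snord33 lies in Rpl13a, a ribosomal protein gene at -0.12, a gap of 2.25, and Snora52 in Rplp2, a ribosomal stalk protein gene at 0.02, a gap of 2.07.

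In the remaining pairs host and small RNA were closer. Ipo7, an importin that holds Snora23, stood at 0.66 over 3 probes from 0.09 to 1.31, a gap of 1.15. Eif4a2, a translation initiation helicase that holds Snora81, stood at 0.93 over 3 probes from 0.56 to 1.12, a gap of 0.55, within the pooled SD of 0.63 between probes of a gene. Snord7 was the exception in sign, with its host AA465934, a long noncoding RNA, at 1.17 against 0.77 for the small RNA. Atg16l1, an autophagy gene that holds Scarna6, stood at 0.52 over 3 probes. Snora78 also lies across from Rps2 on the opposite strand, whose 3 probes ranged from -0.53 to 3.55.

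**Figure D3:**
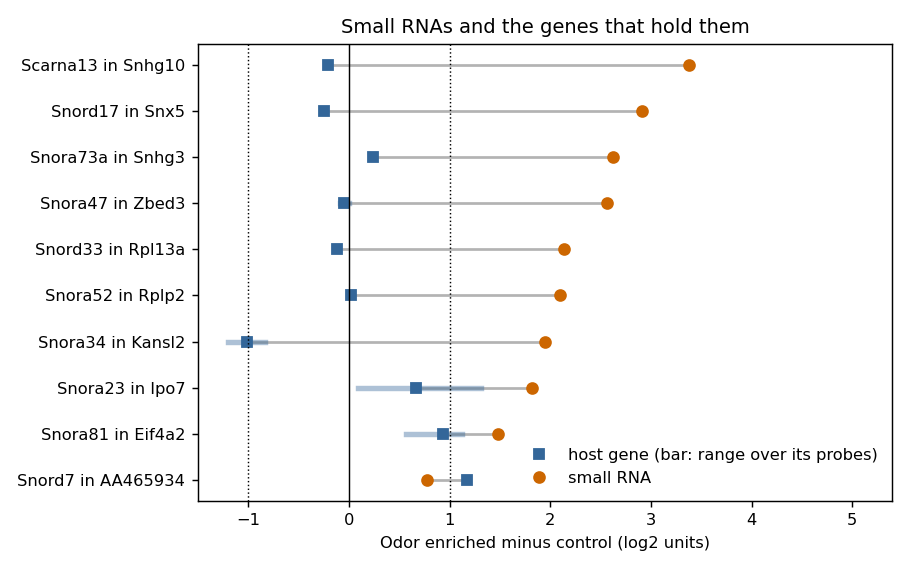
Difference (odor enriched minus control, log2 units) of each small RNA (circles) and of the same-strand gene that contains it (squares, with a bar for the range over the host's probes), for the 10 pairs measured on both arrays. Small RNAs lie to the right of their hosts in 9 pairs, and Snord7 lies to the left of AA465934.

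Genes that build, trim and use these RNAs mostly lay within 2-fold. The core proteins of C/D particles were all under 2-fold, from the methyltransferase partner Nop56 (-0.02) and the methyltransferase Fbl (0.13) to Nhp2l1 (0.17) and Nop58 (0.30). The core proteins of H/ACA particles were also under 2-fold, with a median of -0.27. Gar1 stood at -0.92 and the pseudouridine synthase Dkc1 at -0.53, against -0.01 for Nhp2 and 0.18 for Nop10. Of 14 assembly and Cajal body factors 0 passed 2-fold in either direction, with a median of -0.11 and a range from Wrap53 (-0.44) and Rrp9 (-0.36) to Znhit6 (0.25) and Nufip1 (0.33).

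Of 9 enzymes listed for release, trimming or decay of snoRNAs and their host transcripts, 0 passed 2-fold. They ran from the debranching enzyme Dbr1 (-0.27) and the helicase Upf1 (-0.10) to the exonuclease Xrn1 (0.43) and the polymerase Papd5 (0.49). Of 16 genes for rRNA synthesis and ribosome biogenesis, 1 was at least 2-fold lower, Bop1 (-1.08), and 0 higher. The next lowest was Mphosph10 (-0.53), and the highest were Pes1 (0.43) and Ubtf (0.51, with 3 probes from -0.80 to 1.35). A list of 27 textbook snoRNA hosts had a median of -0.00183 and 0 members past 2-fold, from Dkc1 (-0.53) and Rpl21 (-0.53) to Eif4a2 (0.93) and Rps2 (0.96). Gas5, the best known noncoding host, stood at 0.35 over 2 probes. Among 7 long transcripts of imprinted loci, the snoRNA host Rian (1.25) passed 2-fold upwards and Snrpn (-1.34) downwards. Peg13 (-0.51) and Mirg (0.52) followed. Read against the background of 11.5% and 5.52%, these lists held at most 1 gene past 2-fold in a direction. Their values near 0 have no settled sign, since scalings other than the spike-ins shifted all genes by up to 0.33.

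Other structured noncoding RNAs, which like the snoRNAs are not polyadenylated as messenger RNAs are, also stood higher on the odor-enriched array. Of a list of 16 such RNAs, 9 were on the array and measured, and 7 of these passed 2-fold upwards and 0 downwards, with a median of 1.35. The spliceosomal RNA genes Rnu1b1 (2.04) and Rnu2-10 (1.80) were highest and Rnu12 (0.42) and the RNase P RNA Rpph1 (0.92) lowest. The list also held the telomerase RNA Terc (1.2), itself an H/ACA RNA, and the RNase MRP RNA Rmrp (1.15). A wider set, chosen after its values were seen, took all 16 genes outside the rule whose RefSeq accession is typed as snRNA, rRNA, scRNA, RNase P, RNase MRP or telomerase RNA. Of these, 16 of 16 were positive and 11 passed 2-fold, and their values ran from 0.42 to 2.38. The probe for 28S ribosomal RNA (Rn28s1) had the largest difference, with a control signal of 36624 and an odor-enriched signal of 153824 (2.38). Rnu3b1, the U3 C/D RNA under an older name, stood at 1.28. Copies of U1 (Rnu1a1, Rnu1b1 and Rnu1b6, from 2.0 to 2.11) share most of their sequence and cannot be counted as separate readings.

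**Figure D4:**
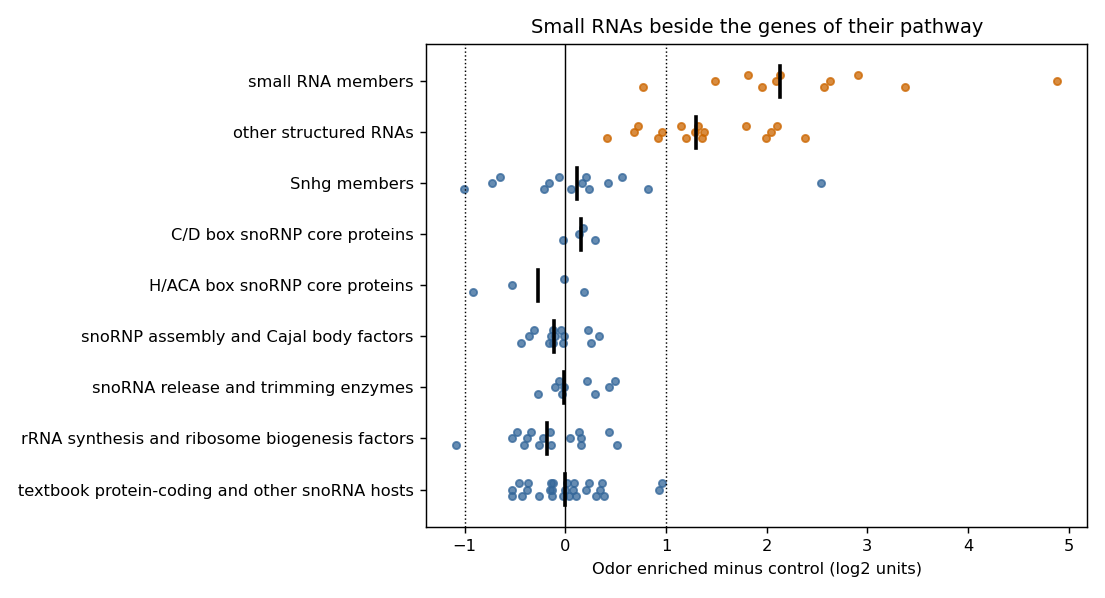
Difference (odor enriched minus control, log2 units) of each gene measured on both arrays, with 1 row per set, the median as a black bar and 2-fold as dotted lines. Small RNA members (11) and other structured RNAs (16) lie to the right of 0, and the Snhg, snoRNP protein, enzyme and host rows lie around 0.

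Several measures moved with the small RNAs, and their part in the result was not tested. The 8 measured E1A spike-in probes, which read control RNA outside the mouse genome, were higher in the odor-enriched sample by 1.54 to 4.69, with a median of 1.76. Spots well above background made up 73.7% of the control array and 67.6% of the odor-enriched array. As a check of the labelled tissue, 12 of 12 bulb neuron markers were measured on both arrays. Past 2-fold, 2 were lower, Doc2g (-1.84) and Cdhr1 (-1.40), and 1, Tbx21 (3.11), was higher. Which cells gave the Tbx21 signal was not tested. Of the 12, 9 were negative. The 12 had summed levels of 68.8 (control) and 43.3 (odor enriched), in units of the array's 75th percentile. Olfactory sensory neuron markers passed 2-fold downwards for 6 of 7 (486 and 112), and astrocyte markers for 2 of 5 (294 and 149). Of the other cell types, T and NK cell markers passed 2-fold upwards for 10 of 10, with summed levels of 1.83 and 28.1. The same held for 5 of 6 endothelial markers (27.0 and 54.6), 4 of 6 markers of dividing cells (8.11 and 15.4) and 2 of 6 oligodendrocyte markers (365 and 800), against 11.5% upwards and 5.52% downwards over all genes. Markers of microglia and macrophages had a median of -0.04, with 3 positive and 3 negative. No member probe was in a patch of spots that differed together, and none was saturated or flagged as an outlier.

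The 11 small RNAs kept a positive difference under 6 of the 7 other scalings tried. Over those 6, the median of the 11 small RNAs ran from 1.80 to 2.47 and 10 or 11 of them passed 2-fold. Scaled on the E1A spike-ins, the median was 0.38 and 3 of 11 passed 2-fold, namely Snora74a (3.13), Scarna13 (1.62) and Snord17 (1.15). Snora81 (-0.27) and Snord7 (-0.98) then turned negative. On that scale all genes shifted by -1.76, with 1.58% of all genes past 2-fold upwards and 83.5% downwards. The Snhg median was then -1.65, with 12 of 14 past 2-fold downwards. Of the 16 other structured RNAs, 5 stayed positive and 11 turned negative. Centring on the array median shifted all genes by -0.17 and put 8.95% up and 8.64% down, and the series matrix shifted them by 0.33 and put 18.7% up and 2.44% down.

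**Figure D5:**
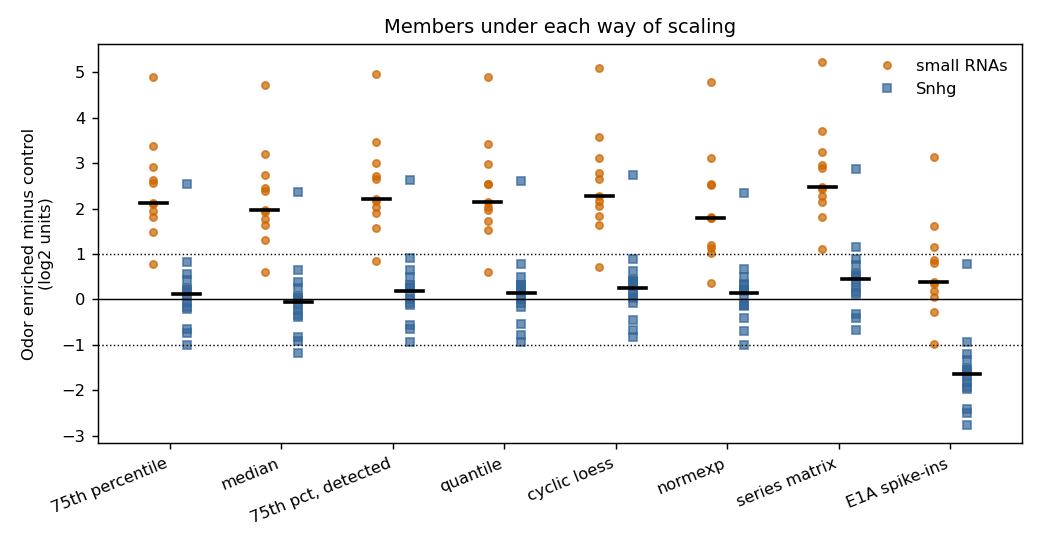
Difference (odor enriched minus control, log2 units) of the 11 small RNAs (circles) and 14 Snhg transcripts (squares) under 8 ways of scaling, with the medians as black bars. Small RNA medians lie above Snhg medians in each, and both drop with E1A scaling, to 0.38 and -1.65.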

How the data were processed

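Per the file headers, the scans were read by Feature Extraction 11.5.1.1 (Agilent). The deposited processed signal is a spot intensity that this software background-subtracted and detrended, and its error is the software's own. The authors' series matrix was found to be on a log2 scale, as that signal less a constant per array whose origin is not given in the sources used here (medians -9.48 and -8.98), so it served as an alternative. Outlier-flagged spots (122 and 183) were left out, log2 signals were averaged per probe, and the array's 75th percentile was subtracted (7.966 and 7.655 log2 units). Gene values average the probes that were well above background on both arrays. A bound was measured from the other array's lowest normalized signal well above background (-5.69 in the control, -4.66 in the odor-enriched array).

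Genes were counted at 2-fold. All 13 small RNA accessions and 25 of 37 member probes matched the RefSeq table. All Snhg transcripts and small RNAs are named, with the 2 highest and 2 lowest genes of each pathway list. Cell type marker lists are given by counts, with Tbx21, Doc2g and Cdhr1 named. The members and lists were chosen with earlier results of these data known. Repeat spots of 300 probes had a pooled SD of 0.05 for the difference. The steps were checked on simulated data. Tools were Python 3.11.15, numpy 2.4.6, pandas 2.3.3, scipy 1.17.1, matplotlib 3.10.9, R 4.3.3 and limma 3.58.1. The alternatives changed the scaling (7 settings, with a normexp offset of 50), the outlier and patch spots, the filter, the probe summary and the fold.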

Additional observations from a re-analysis of the deposited data

How the results depend on the processing

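No paired analysis was possible because each group is 1 mouse, which also leaves no replicate to drop. Over 15 alternatives the count of small RNAs at least 2-fold higher stayed within 1.5 times of 10 except with E1A spike-in scaling (3), and 0 were lower in each. Their median of 2.13 moved by more than the spot error of 0.20 with E1A scaling (0.38), normexp (1.80), the series matrix (2.47) and the filter at the median signal (2.60, over 8 RNAs). The median gap to the host, 2.32, was 1.89 with normexp and 2.68 with that filter. The Snhg median of 0.11 was -1.65 with E1A scaling and 0.44 with the series matrix. The count of Snhg transcripts higher was 0 with E1A scaling and 2 with the series matrix or at 1.5-fold. The count lower was 12 with E1A scaling, 3 at 1.5-fold, 2 with probes above background on either array or no filter, and 0 with the percentile over detected probes, quantile normalization, loess, the series matrix or at 3-fold. Snora81 turned to -0.27 with E1A scaling. These Snhg counts of 1 rest on Snhg12 and on Snhg7os, the latter at the threshold. The cause of each shift was not tested. Signal over background limits Snora78, Scarna6 and Snhg4, whose dim spots allow no measured fold.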
